A study of Homo sapiens with 6 samples.

Results

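The 10 genes described here encode inhibitors of cyclin-dependent kinases and the D-type cyclins: the CIP/KIP inhibitors CDKN1A, CDKN1B and CDKN1C, the INK4 inhibitors CDKN2A, CDKN2B, CDKN2C and CDKN2D, and the cyclins CCND1, CCND2 and CCND3. They were chosen by name from 62656 genes, and each name was matched to a stable gene identifier of the tables. OVCAR5 is an established line of human ovarian cancer cells. It was cultured for 3 days with 100 nM NTX301 (3 libraries) or with its solvent DMSO (3 libraries). NTX301 is described in the study's title as an agent that lowers DNA methylation. The comparison asks how RNA levels differed after the drug. Every library comes from the same cell line. Nothing in the labels says that replicates were separate cultures, so the p-values cover only the variation among these 6 libraries, which may be technical.

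D-type cyclins bind the kinases CDK4 and CDK6 in G1 of the cell cycle, and the complexes phosphorylate the retinoblastoma protein RB1, which holds back the E2F transcription factors. INK4 proteins bind CDK4 and CDK6 and keep the cyclin off, while CIP/KIP proteins bind assembled cyclin and kinase complexes and mainly block CDK2. CDKN1A responds to many forms of stress, CDKN2A and CDKN2B are often lost or methylated in tumours, and CDKN1C lies in an imprinted region. Both the inhibitors and the D-type cyclins are also controlled as proteins by degradation, which RNA libraries do not measure.

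The libraries held 23194160, 23842859 and 23777071 estimated counts with NTX301, against 25572170, 25743732 and 22131175 with DMSO. Of 19029 genes that passed the filter on low counts, 6744 were called higher (35.4%) and 6677 lower (35.1%) at an adjusted p of 0.05 in edgeR's quasi-likelihood test, so a call by itself is common here. Without scaling factors the split was 8793 higher and 4732 lower, and on log2(TPM + 1) it was 8652 and 4318; the median of all tested genes shifted by 0.21 and 0.17 on the log2 scale, and fold changes below are relative to a median of about 0. In counts corrected for library size (CPM), ranges of the NTX301 and DMSO libraries did not overlap in 73.7% of tested genes. The share on TPM was not computed. DMSO replicate 3 stood apart from the other DMSO libraries on the second principal component, which held 6.34% of the variance. Epithelial markers were abundant, with a summed level of 2450 to 2530 TPM with NTX301 and 4370 to 4550 TPM with DMSO (1 of 6 higher, 5 lower), while the ovarian carcinoma markers SOX17 and WT1 had 0 counts and 10 counts with NTX301, and 0 and 3 with DMSO. The ovarian list summed to 12.3 to 14.0 TPM with NTX301 and 9.55 to 10.1 TPM with DMSO, mostly from PAX8, and 1 of its 3 tested genes, MUC16, was lower. Leukocyte markers summed to 77.8 to 84.4 TPM with NTX301 and 41.5 to 48.0 TPM with DMSO, all but a trace of it from CD14 and CD68 (2 of 2 tested higher), and PTPRC had 7 counts with NTX301 and 0 with DMSO. Fibroblast markers summed to 19.6 to 20.2 TPM with NTX301 and 5.01 to 5.68 TPM with DMSO (3 of 4 tested higher, 1 lower), with DCN at 6 and 1 counts, and endothelial markers to 2.12 to 2.38 and 1.47 to 1.64 TPM (2 of 3 tested higher). Some of these calls depended on the fit. Those of the endothelial VWF and of MUC16 were lost on log2(TPM + 1), and that of the fibroblast marker LUM without scaling factors. PAX8 was called higher in both of those fits. The part of these marker shifts in the results below was not tested.

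Of the 10 genes, 7 passed the filter, and all 7 were called: CDKN1A, CDKN1C, CDKN2C, CDKN2D, CCND1 and CCND3 were higher with NTX301 and CDKN1B was lower. The background for these counts is that 35.4% of tested genes were called higher, 35.1% lower and 70.5% in either direction. CDKN2A and CDKN2B had 0 counts in every library, and CCND2 was too low to be tested in that fit. CDKN1A, CDKN2D and CCND3 were called higher by more than 2-fold. Of all tested genes, 13.4% were called higher by at least 2-fold. Fewer cells carrying a transcript and less of it per cell cannot be told apart in bulk RNA.

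**Figure D1:**
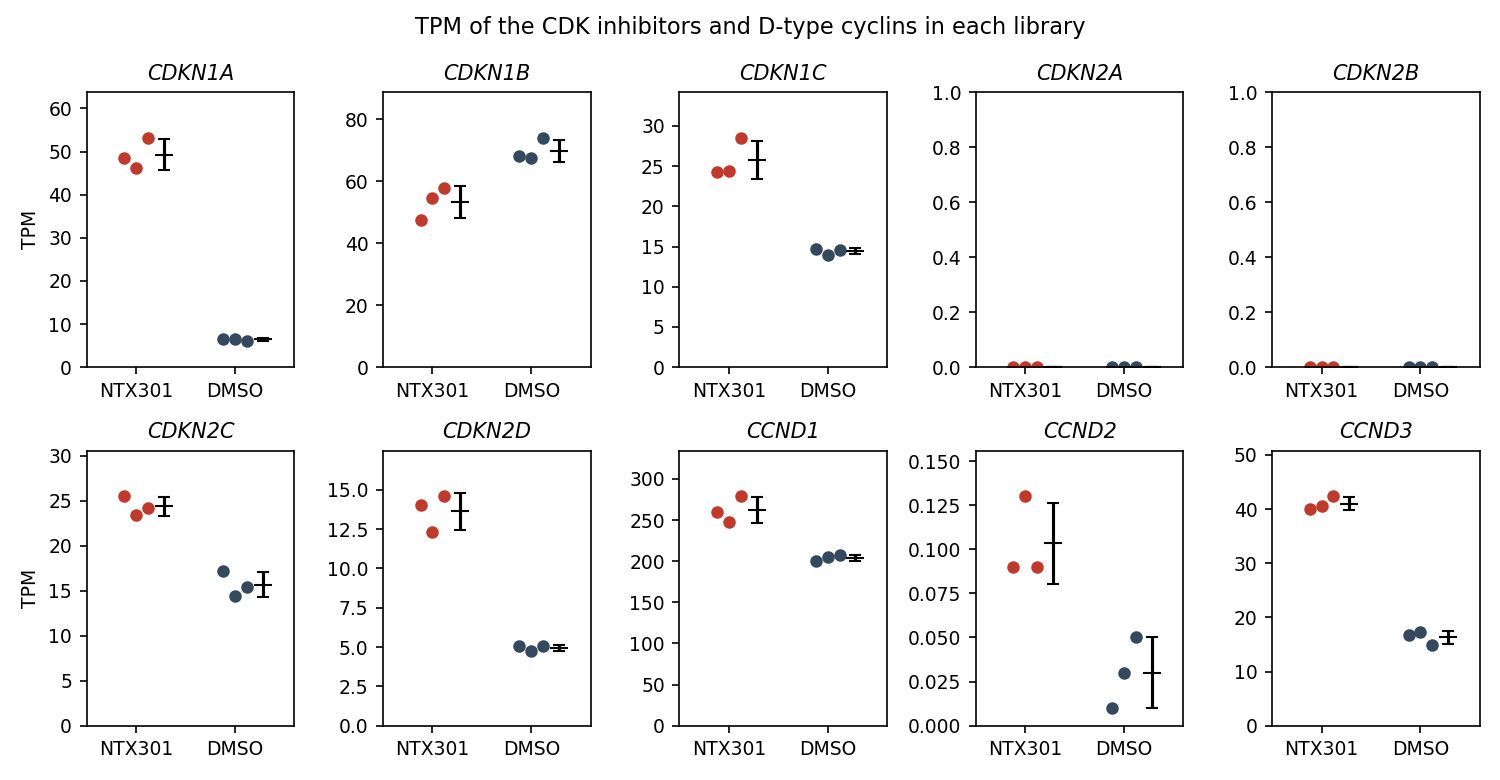
TPM of each of the 10 genes in the 3 NTX301 and the 3 DMSO libraries (points), with mean and SD beside them, on a linear axis of its own for each gene. The 3 NTX301 points lie above the 3 DMSO points for every gene with counts except CDKN1B, where they lie below, and CDKN2A and CDKN2B are at 0 in every library. On CPM the groups did not overlap in 73.7% of all tested genes, and the share on TPM was not computed.

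Promoter windows are shown for CDKN1A, the member with the largest difference, for CDKN1B, the only one that was lower, and for CDKN2D and CCND3, the INK4 inhibitor and the cyclin with the largest difference. Each window runs from 250 bases before to 50 bases after a transcription start (RefSeq, GRCh38.p14), 5′ to 3′ on the strand of the gene. Capitals mark the GC box (GGGCGG) and the CCAAT box (CCAAT) on either strand, and neighbouring matches may overlap.
CDKN1A, chr6:36678464-36678763, plus strand: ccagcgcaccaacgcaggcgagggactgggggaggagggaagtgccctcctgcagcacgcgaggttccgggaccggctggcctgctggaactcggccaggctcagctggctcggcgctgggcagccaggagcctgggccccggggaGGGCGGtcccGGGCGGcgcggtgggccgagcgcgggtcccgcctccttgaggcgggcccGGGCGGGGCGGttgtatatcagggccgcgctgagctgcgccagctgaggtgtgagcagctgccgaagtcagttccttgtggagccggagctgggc
CDKN1B, chr12:12717118-12717417, plus strand: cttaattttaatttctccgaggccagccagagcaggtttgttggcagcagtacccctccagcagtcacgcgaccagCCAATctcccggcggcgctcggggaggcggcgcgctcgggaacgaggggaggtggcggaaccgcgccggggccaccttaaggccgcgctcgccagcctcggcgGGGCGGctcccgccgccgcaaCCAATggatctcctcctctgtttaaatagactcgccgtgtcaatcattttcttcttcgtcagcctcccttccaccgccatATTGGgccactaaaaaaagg
CDKN2D, chr19:10568930-10569229, minus strand: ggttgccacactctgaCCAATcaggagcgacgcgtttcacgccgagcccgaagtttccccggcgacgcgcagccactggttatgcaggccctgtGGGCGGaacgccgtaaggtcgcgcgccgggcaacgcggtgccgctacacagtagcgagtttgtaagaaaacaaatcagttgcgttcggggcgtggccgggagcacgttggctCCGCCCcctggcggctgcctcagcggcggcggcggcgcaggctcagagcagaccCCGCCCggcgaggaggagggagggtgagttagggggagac
CCND3, chr6:41941759-41942058, minus strand: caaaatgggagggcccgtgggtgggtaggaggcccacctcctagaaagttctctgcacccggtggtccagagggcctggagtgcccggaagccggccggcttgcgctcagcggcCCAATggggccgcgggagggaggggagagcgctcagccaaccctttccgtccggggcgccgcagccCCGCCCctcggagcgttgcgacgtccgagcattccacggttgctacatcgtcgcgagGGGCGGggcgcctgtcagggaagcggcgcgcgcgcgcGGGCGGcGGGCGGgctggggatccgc
The windows hold 29 CpG in CDKN1A, 29 in CDKN1B, 36 in CDKN2D and 37 in this CCND3 window, against a median of 14 over all 35116 windows of the table. Of the CCND3 windows, the one with most CpG was picked, and which start the cells use was not tested. The GC box occurs 4 times in CDKN1A, 1 time in CDKN1B, 3 times in CDKN2D and 4 times in CCND3, and 45.0% of all windows hold at least 1. The CCAAT box occurs 3 times in CDKN1B, 1 time each in CDKN2D and CCND3 and 0 times in CDKN1A, and 34.6% of all windows hold it. CDKN1A, which was higher, and CDKN1B, which was lower, had the same number of CpG. CDKN2A, with windows of 26 and 28 CpG, and CDKN2B, with 25, were above that median as well, but not above the upper quartile of 28. CDKN2C had windows of 8, 37 and 11 CpG and the other windows of CCND3 had 3 and 29. Windows were found for 7 of the 10 genes, and CDKN1C, CCND1 and CCND2 are only named. These matches describe letters, and methylation was not analysed here.

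CDKN1A (ENSG00000124762, chr6:36676460-36687339, plus strand, GRCh38) encodes p21, which binds cyclin and CDK2 complexes and, through another part of the protein, the replication clamp PCNA. It had 48.59, 46.08 and 53.18 TPM in the NTX301 libraries, against 6.63, 6.62 and 6.10 TPM in the DMSO libraries. All NTX301 libraries lay far above all DMSO libraries. On the scale of the test, CPM, which are counts corrected for library size, it averaged 53.1 ± 2.52 with NTX301 and 8.12 ± 0.571 with DMSO (SD, n = 3 each), a log2 fold change of 2.70 ± 0.07 (SE; 6.52-fold; edgeR adjusted p = 4.8e-11). Only 2.32% of tested genes had a larger absolute log2 fold change. DINOL, a noncoding RNA on the opposite strand of this locus, had 5 counts with NTX301 and 1 with DMSO, and reads of the overlapping genes may not have been separated.

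CDKN1B (ENSG00000111276, chr12:12715058-12722371, plus strand) encodes p27, an inhibitor that holds CDK2 in resting cells and is removed by ubiquitination as cells enter S phase. Its levels were 47.66, 54.53 and 57.73 TPM with NTX301, against 68.16, 67.52 and 74.05 TPM with DMSO. The highest NTX301 library stayed below the lowest DMSO library. CPM averaged 63.7 ± 2.92 with NTX301 and 99.3 ± 3.15 with DMSO (SD, n = 3 each), and the log2 fold change was -0.64 ± 0.05 (1.56-fold lower; edgeR adjusted p = 1.3e-07). Without scaling factors it was -0.43 (edgeR adjusted p = 4.7e-06), and on log2(TPM + 1) it was -0.39 (limma adjusted p = 0.0016), with the same direction. With the median of all tested genes subtracted, it was -0.64 in the reported fit. On that scale it was -0.64 without scaling factors and -0.56 on log2(TPM + 1). Both nearest tested genes were higher: GPR19, an orphan G protein-coupled receptor gene 18851 bases away, by 2.05 ± 0.12, and APOLD1, 3546 bases away, by 0.86 ± 0.09 on the log2 scale.

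CDKN1C (ENSG00000129757, chr11:2883213-2885773, minus strand) encodes p57, the CIP/KIP inhibitor with a role in growth control of the embryo, normally expressed from the maternal copy. It was measured at 24.31, 24.41 and 28.51 TPM with NTX301, against 14.71, 13.95 and 14.62 TPM with DMSO, again without overlap. CPM averaged 20.5 ± 1.20 with NTX301 and 13.7 ± 0.504 with DMSO (SD, n = 3 each), and the log2 fold change was 0.59 ± 0.07 (1.50-fold; edgeR adjusted p = 1.1e-05). That is a moderate difference here, since 42.9% of tested genes had a larger one in absolute terms.

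Summed over the 3 CIP/KIP genes, the level was 128 ± 9.86 TPM with NTX301 and 90.8 ± 3.52 TPM with DMSO (SD, n = 3 each). TPM is scaled for transcript length, so genes can be compared with each other. CDKN1A made up 38.4% ± 1.74 of the sum with NTX301 and 7.12% ± 0.594 with DMSO. CDKN1B made up 41.5% ± 2.04 with NTX301, against 77.0% ± 1.03 with DMSO, and CDKN1C 20.1% ± 0.473 against 15.9% ± 0.507. With NTX301, CDKN1A (46.08 to 53.18 TPM) and CDKN1B (47.66 to 57.73 TPM) had overlapping levels, while with DMSO CDKN1B was the main transcript of the family. Counts per annotated length divide by the plain mean over a gene's annotated transcripts, not weighted by abundance. When they replaced TPM, the shares with NTX301 were no longer close: CDKN1A made up 31.9% and CDKN1B 52.8% of the sum.

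**Figure D2:**
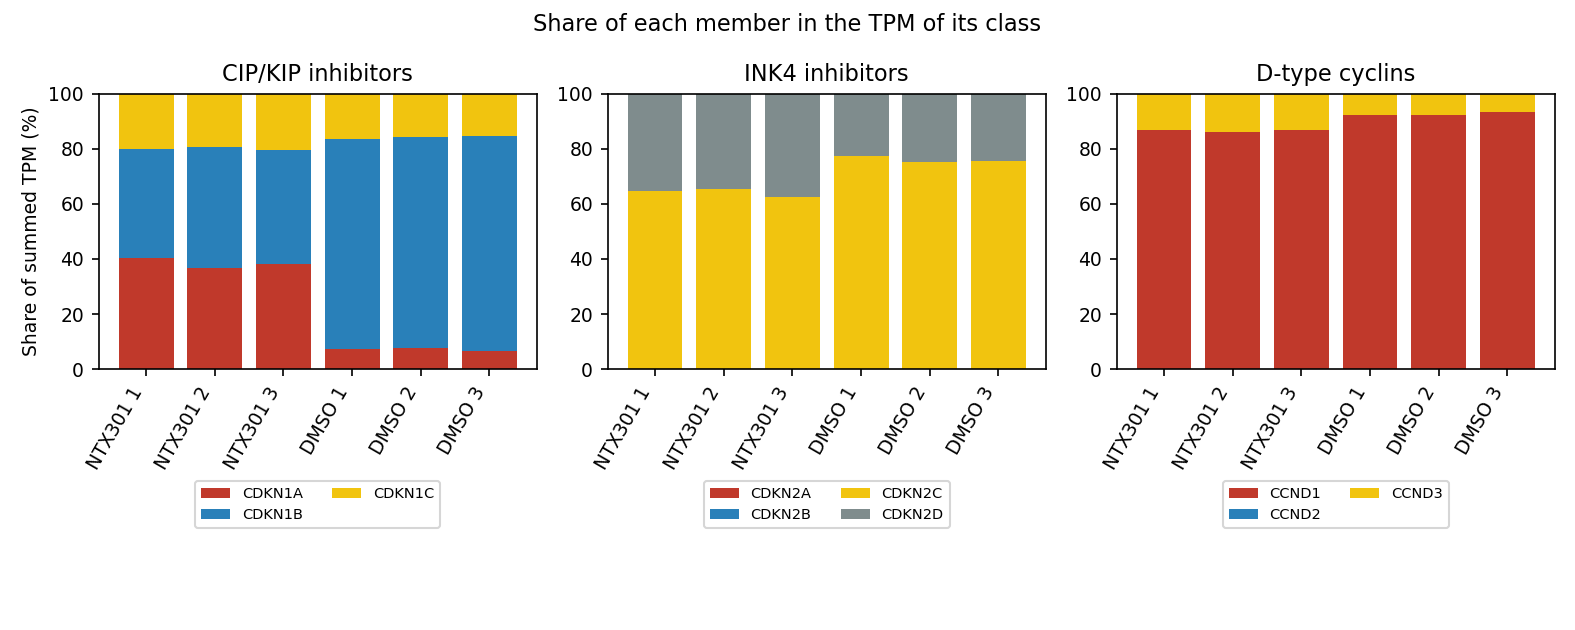
Share of each gene in the summed TPM of its family, in percent, as a stacked bar for each of the 3 NTX301 and 3 DMSO libraries. CDKN1A held a mean of 38.4% of the CIP/KIP sum with NTX301 and 7.12% with DMSO, and CDKN2A and CDKN2B (0%) and CCND2 (under 0.05%) show no visible part.

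Among the INK4 genes, CDKN2D (ENSG00000129355, chr19:10566462-10569059, minus strand), which encodes p19-INK4d, differed most. It reached 14.02, 12.31 and 14.58 TPM with NTX301, against 5.05, 4.75 and 5.04 TPM with DMSO. The lowest NTX301 library was above the highest DMSO library by more than the range within either group. CPM averaged 8.01 ± 0.572 with NTX301 and 3.51 ± 0.208 with DMSO (SD, n = 3 each), and the log2 fold change was 1.19 ± 0.11 (2.28-fold; edgeR adjusted p = 1.6e-06). Only 608 counts with NTX301 and 240 with DMSO lie behind these values, the fewest of the 7 tested members. The genes on both sides were called higher, as were 35.4% of all tested genes. KRI1, a ribosome assembly gene 425 bases away, was higher by 0.70 ± 0.04 on the log2 scale. AP1M2, a subunit of an adaptor complex of epithelial cells 3612 bases away, was higher by 1.25 ± 0.13.

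CDKN2C (ENSG00000123080, chr1:50960745-50974633, plus strand) encodes p18-INK4c. It had 25.48, 23.36 and 24.24 TPM with NTX301, against 17.18, 14.39 and 15.43 TPM with DMSO. The groups did not overlap. CPM averaged 22.6 ± 0.768 with NTX301 and 16.9 ± 1.60 with DMSO (SD, n = 3 each), and the log2 fold change was 0.41 ± 0.07 (1.33-fold; edgeR adjusted p = 0.00028). Without scaling factors it was 0.62, or 0.42 with the median of all tested genes subtracted. FAF1, 482 bases away and encoding a protein of ubiquitin-dependent degradation, was higher by 0.44 ± 0.05 on the log2 scale.

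CDKN2A (chr9:21967753-21995301, minus strand), which encodes p16 and, from another reading frame, p14ARF, and CDKN2B (chr9:22002903-22009363, minus strand), which encodes p15, had 0 counts in all 6 libraries. A group total of 3 counts, the limit that a count of 0 allows, corresponds to 0.0395 CPM with NTX301 and 0.0439 CPM with DMSO, and such limits cover counting error only. Transcripts of either gene were thus not detectable at this depth with NTX301 or with DMSO. Neighbours of the locus also had few or no counts, and RNA counts do not tell an untranscribed gene from one missing in the DNA. MTAP, which encodes an enzyme of methionine salvage, had 0 counts with NTX301 and 2 with DMSO, the antisense RNA CDKN2B-AS1 had 0 and 3.29, and CDKN2A-DT had 0 in both. Within 2000 kb on either side of the start of CDKN2A, 19 of 26 protein-coding genes had at most 3 counts in all 6 libraries together, many of them type I interferon genes. The nearest coding genes above 1 TPM in both groups were KLHL9, a ubiquitin ligase adaptor, on the interferon side, with 6.96 ± 0.445 TPM with NTX301 and 9.20 ± 0.259 TPM with DMSO, and DMRTA1 on the other side, with 2.08 ± 0.0929 and 1.83 ± 0.295 TPM (SD, n = 3 each). KLHL9 was lower by a log2 fold change of -0.61 ± 0.06 (edgeR adjusted p = 1.1e-06), whereas DMRTA1 was not called, at -0.01 ± 0.12 (adjusted p = 0.93), a sign that flips without scaling factors and on log2(TPM + 1). Between them, IFNE, an epithelial interferon gene, had 20 counts with NTX301 and 107 with DMSO (log2 fold change -2.56 ± 0.38, adjusted p = 7.1e-05).

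With CDKN2A and CDKN2B at 0, the INK4 sum consisted of CDKN2C and CDKN2D, and it was 38 ± 2.04 TPM with NTX301 and 20.6 ± 1.55 TPM with DMSO (SD, n = 3 each). CDKN2C remained the larger part, with 64.2% ± 1.56 with NTX301 and 76.0% ± 1.16 with DMSO. CDKN2D contributed 35.9% ± 1.56 with NTX301, against 24.1% ± 1.16 with DMSO.

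CCND1 (ENSG00000110092, chr11:69641087-69654474, plus strand), the cyclin most often amplified in tumours, was the most abundant of the 10 genes in every library. It had 260.23, 248.04 and 278.77 TPM with NTX301, against 200.20, 204.83 and 207.24 TPM with DMSO. The groups did not overlap, but the difference was small. CPM averaged 521 ± 12.8 with NTX301 and 462 ± 7.95 with DMSO (SD, n = 3 each), and the log2 fold change was 0.18 ± 0.04 (1.13-fold; edgeR adjusted p = 0.0013). Without scaling factors it was 0.38 and on log2(TPM + 1) it was 0.36, with the same direction and call. With the median of all tested genes subtracted, it was 0.18 in the reported fit. On that scale it was 0.18 without scaling factors and 0.19 on log2(TPM + 1), but 0.07 when genes with low counts were kept in the fit. Its size thus rests on whether the shift of all genes is removed and on which genes are kept. LTO1, on the opposite strand and overlapping CCND1, was higher by 0.55 ± 0.06.

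CCND3 (ENSG00000112576, chr6:41934933-42050357, minus strand), the D-type cyclin best known from lymphoid cells and muscle, was measured at 40.05, 40.63 and 42.34 TPM with NTX301, against 16.77, 17.21 and 14.91 TPM with DMSO. Its NTX301 libraries lay close together and well above the DMSO libraries. CPM averaged 40.6 ± 0.767 with NTX301 and 17.9 ± 1.90 with DMSO (SD, n = 3 each), and the log2 fold change was 1.18 ± 0.07 (2.27-fold; edgeR adjusted p = 2.1e-08). BYSL, a ribosome assembly gene 1887 bases away, was higher by 1.07 ± 0.05 and TAF8, a subunit of the general factor TFIID 156 bases from the other end, by 0.24 ± 0.05 on the log2 scale.

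CCND2 (ENSG00000118971, chr12:4273772-4305350, plus strand) was barely transcribed. It had 0.09, 0.13 and 0.09 TPM with NTX301, against 0.01, 0.03 and 0.05 TPM with DMSO. These values rest on 27 rounded counts with NTX301 and 8 with DMSO, a CPM ratio of 3.03 (exact 95% interval 1.34 to 7.73, counting error only). When genes with low counts were kept in the fit, the log2 fold change was 1.53 ± 0.60 (edgeR adjusted p = 0.048). Another annotated coding gene on the same strand, ENSG00000285901, overlaps CCND2 and was higher by 1.27 ± 0.41 (adjusted p = 0.016), so the division of reads between the overlapping genes is uncertain.

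The D-type cyclin sum was 303.5 ± 16.4 TPM with NTX301 and 220.4 ± 2.98 TPM with DMSO (SD, n = 3 each). CCND1 made up 86.4% ± 0.484 of it with NTX301 and 92.6% ± 0.587 with DMSO, and CCND3 13.5% ± 0.474 against 7.40% ± 0.594. CCND2 stayed at 0.0343% with NTX301 and 0.0135% with DMSO.

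**Figure D3:**
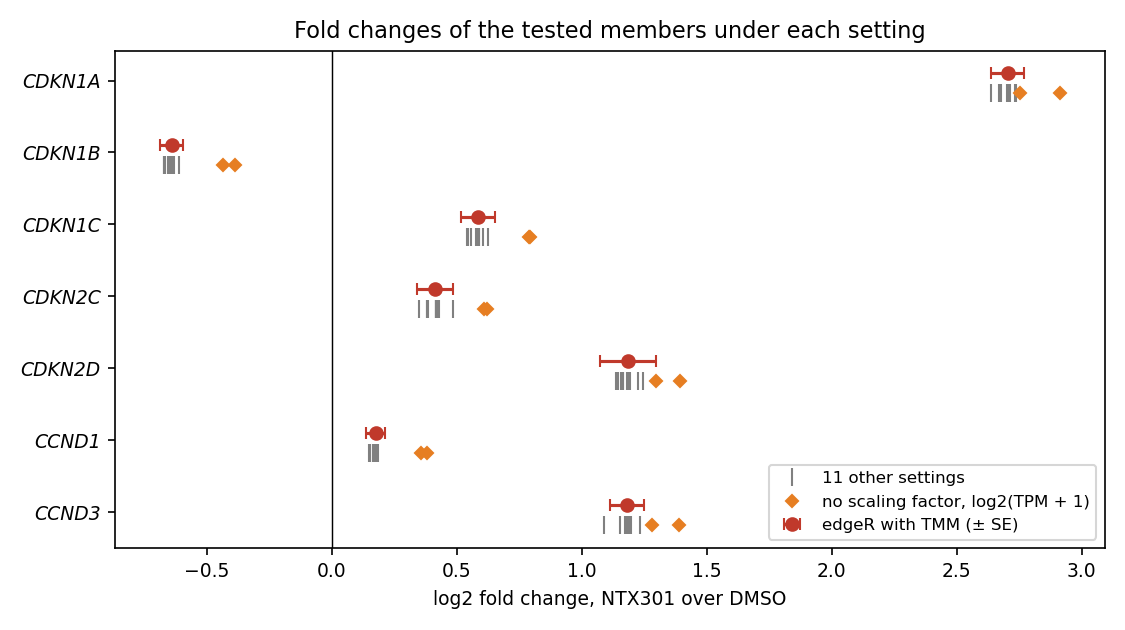
Log2 fold change of NTX301 over DMSO with SE (edgeR, 3 libraries per group) for the 7 tested members (circles), with the values without scaling factors and on log2(TPM + 1) (diamonds) and under the other 11 alternatives (ticks). CDKN1A stands at 2.70, CDKN2D and CCND3 near 1.2, CDKN1C, CDKN2C and CCND1 between 0 and 1, and CDKN1B at -0.64.

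Ordered by TPM with NTX301, CCND1 led, followed by CDKN1B and CDKN1A, whose ranges overlapped, then CCND3, then CDKN1C and CDKN2C, whose ranges overlapped, and then CDKN2D. With DMSO the order was CCND1, CDKN1B, then CCND3, CDKN2C and CDKN1C with overlapping neighbours, then CDKN1A and CDKN2D. CDKN1A was thus below CDKN2C and CDKN1C in every DMSO library and above both in every NTX301 library. The mean transcript length, weighted by the abundance of isoforms, differed without overlap in 3 members. In CCND3 it was 1936 to 1982 bases with NTX301 and 1846 to 1917 bases with DMSO, in CDKN2D 1183 to 1202 bases against 1231 to 1260 bases, and in CDKN1A 2111 to 2129 bases against 2134 to 2146 bases. These shifts are small beside the differences in level. The share of all genes whose lengths differed in this way is not given here. Nothing particular to the members can therefore be read from them.

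The kinases and partners of these proteins were mostly higher: of 12 genes, 11 were higher and 1 lower, beside 35.4% and 35.1% of all tested genes. Their median log2 fold change was 0.46 against about 0 for all tested genes. CDK4 averaged 191 ± 8.04 TPM with NTX301 and 119.7 ± 6.15 TPM with DMSO, and CDK2 67.7 ± 3.00 against 25.1 ± 0.228 TPM (SD, n = 3 each); their log2 fold changes were 0.42 ± 0.04 and 1.20 ± 0.04. CDK6 had a small difference of 0.12 ± 0.05 (edgeR adjusted p = 0.048). The phosphatase gene CDC25A, whose product activates CDK2, was higher by 1.81 ± 0.09, CCNE2 by 1.44 ± 0.09 and CCNE1 by 1.01 ± 0.09, the last pair encoding the E cyclins that drive CDK2. CDK3, at 1.25 CPM with NTX301 and 4.70 CPM with DMSO, was lower by a log2 fold change of -1.91 ± 0.22.

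Of 13 RB and E2F genes, 8 were higher, 3 lower and 2 not called, with a median of 0.31. The shares over all tested genes were 35.4% higher and 35.1% lower. Without scaling factors 11 of the 13 were higher and 2 lower, beside 8793 and 4732 of all tested genes. The repressive family members E2F8 and E2F7 were higher by 2.06 ± 0.06 and 1.61 ± 0.07, and the activator E2F2 by 1.15 ± 0.09. RB1 was close to the median of all genes, at 0.12 ± 0.04 (edgeR adjusted p = 0.015). The proliferation markers moved with these groups: all 8 were higher, with a median of 1.31, among them AURKA by 1.82 ± 0.07, TOP2A by 1.58 ± 0.05 and BIRC5 by 1.52 ± 0.09. Higher CDKN1A and higher proliferation markers were therefore measured in the same libraries, and the relation between them was not tested.

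**Figure D4:**
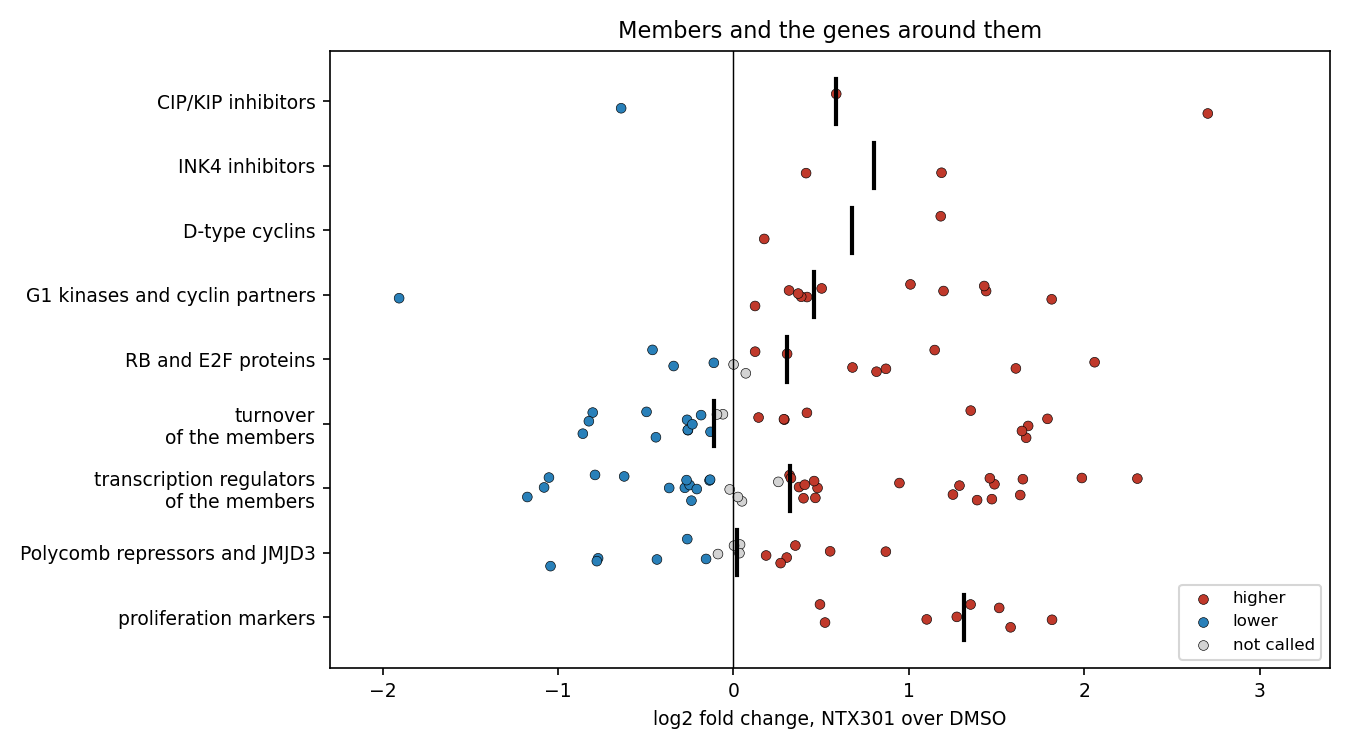
Log2 fold change of NTX301 over DMSO for each tested gene of the 3 families and of 6 lists of related genes; points are genes, coloured by call, and black bars are medians. The 8 proliferation markers all lie above 0, while the turnover and Polycomb lists lie on both sides.

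Genes that act on the stability of the inhibitors and D-type cyclins were divided, with 9 of 22 higher, 11 lower and 2 not called. Their median was -0.11, against about 0 for all tested genes. Without scaling factors it was 0.10 against 0.21 (9 higher, 5 lower). On log2(TPM + 1) it was 0.14 against 0.17 (10 higher, 4 lower). Its sign thus changed, but it lay below the median of all tested genes in each of these fits. Over all tested genes, 35.4% were higher and 35.1% lower in the reported fit. Without scaling factors 8793 of all tested genes were higher and 4732 lower. SKP2, which marks p27 for degradation, averaged 17.5 CPM with NTX301 and 20.9 CPM with DMSO (log2 fold change -0.26 ± 0.07, edgeR adjusted p = 0.0055), a call lost without scaling factors (adjusted p = 0.51) and on log2(TPM + 1) (0.31). CKS1B, the cofactor of SKP2, was higher by 1.67 ± 0.10, and DTL, which directs degradation of p21 during S phase, by 1.35 ± 0.05. The deubiquitinase USP2, which acts on cyclin D1, was higher by 1.79 ± 0.15, and CRYAB, a small heat shock protein, by 1.68 ± 0.34.

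Of 36 tested transcription regulators of these genes, 19 were higher, 13 lower and 4 not called, with a median of 0.32. That is 52.8% higher and 36.1% lower, beside 35.4% and 35.1% of all tested genes. Without scaling factors 23 of the 36 were higher and 6 lower. ETS2 was higher by 2.30 ± 0.05, TBX2, known as a repressor of CDKN1A and of the CDKN2A locus, by 1.99 ± 0.16, and CEBPA by 1.65 ± 0.11. MYC was higher by 0.37 ± 0.04. Among the 13 lower regulators, TCF7L2, SMAD3 and ZBTB7A had log2 fold changes of -1.17 ± 0.04, -1.08 ± 0.04 and -1.05 ± 0.05. Of 16 genes of the Polycomb group and its opposing demethylases, which control CDKN2A in many cells, 6 were higher, 6 lower and 4 not called. This is close to all tested genes, of which 35.4% were higher and 35.1% lower. Without scaling factors 10 were higher and 4 lower, with a median of 0.23 against 0.21 for all tested genes. EZH2 was higher by 0.35 ± 0.04, BMI1 by 0.55 ± 0.05 and EED by 0.87 ± 0.05, while EZH1 and CBX6 had log2 fold changes of -1.04 ± 0.06 and -0.78 ± 0.04.

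Of 9 tested genes in and around the imprinted region of CDKN1C, 4 were higher, 4 lower and 1 not called. Without scaling factors 5 were higher and 3 lower. Whether each of these genes is imprinted in these cells was not tested. Of all tested genes, 35.4% were higher and 35.1% lower, so a split of this kind is common here. PHLDA2, 43.1 kb from the start of CDKN1C, averaged 153 ± 2.52 CPM with NTX301 and 37.3 ± 2.67 CPM with DMSO (SD, n = 3 each; log2 fold change 2.03 ± 0.05). SLC22A18, between these genes, averaged 24.0 ± 0.905 CPM with NTX301 and 56.6 ± 1.68 CPM with DMSO (-1.24 ± 0.05), and SLC22A18AS, which overlaps it, was higher by 1.44 ± 0.25. On the other side, KCNQ1 averaged 3.71 ± 0.126 CPM with NTX301 and 17.8 ± 0.395 CPM with DMSO (-2.26 ± 0.09). KCNQ1OT1, the noncoding RNA that silences the paternal copies of the domain and overlaps KCNQ1 on the other strand, averaged 9.23 ± 1.33 CPM with NTX301 and 30.6 ± 4.35 CPM with DMSO (-1.73 ± 0.12). In the neighbouring domain, H19 and IGF2 were higher by 1.76 ± 0.04 and 1.60 ± 0.04. The authors' counting is not stated to use strand, so overlapping pairs here may share reads.

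By the distance between mean-centred log2 CPM profiles over the 6 libraries, the genes most like CDKN1A were GPNMB (distance 0.0412), a membrane glycoprotein gene, FERMT3 (0.128) and INSYN2B (0.145). For CDKN2D they were SOWAHC (0.110), FAM89A (0.118) and the mitotic kinase gene CIT (0.122). For CCND3 they were the nuclear import gene KPNA2 (0.0691), MOSPD1 (0.0909) and SULT1A3 (0.0950), the last uncertain because SULT1A4 is a near-identical copy. The log2 fold changes of GPNMB, FERMT3 and INSYN2B were 2.72, 2.80 and 2.66, beside 2.70 for CDKN1A. With only NTX301 and DMSO libraries, this distance mainly picks genes of similar fold change, and shared regulation was not tested.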

How the data were processed

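RNA of OVCAR5 cells (3 NTX301 and 3 DMSO libraries) was extracted with TRI Reagent, treated with DNase and made into libraries with a NEBNext Ultra II kit, per the labels' protocols. The authors deposited 1 gene table per library with the columns that RSEM writes, per the file headers. Expected counts, as deposited, are RSEM's estimates of the reads of each gene, and some are not whole. TPM values, as deposited, correct these for transcript length and depth. A deposited FPKM column was left unused. The length columns, per the file headers, are transcript lengths weighted by isoform abundance. Genome build, annotation release and strand setting were not given in the sources used here.

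Each table had 62703 entries, and 47 pseudoautosomal entries of chromosome Y (0.0224% of counts) were added to their X copies. Stable identifiers gave positions in GENCODE 29 (GRCh38) to 58220 genes and symbols to 62639. Expected counts were rounded and tested in edgeR 4.0.16 (R 4.3.3) with filterByExpr, TMM scaling (factors 1.0679 to 1.0834 with NTX301 and 0.9206 to 0.939 with DMSO), glmQLFit and glmQLFTest on all 6 libraries, with Benjamini-Hochberg adjustment over 19029 genes and a threshold of 0.05. CPM values are rounded counts over the TMM-scaled library total. The common biological coefficient of variation was 0.0478. The fit was also run on simulated data in which few genes changed, balanced between directions. Such data cannot show how it behaves where 70.5% of genes are called. Library pairs within a group differed by more than sampling noise (chi-square per degree of freedom 2.37 to 6.57), so each library was counted. Alternatives were DESeq2 1.42.0, limma 3.58.1 (voom, and log2(TPM + 1) with a pseudocount of 1), other scalings, no low-count filter, a replicate block and leaving out each library.

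The members and gene lists were chosen with earlier results of these data known. Named besides the members are the 3 called genes of each list with the largest absolute log2 fold change, a set of G1 and regulator genes whatever they did, the nearest tested genes, and the 3 profiles most like the leading member of each family. TCF7L2, SMAD3 and ZBTB7A are named in addition, as lower genes of the regulator list. Of the chosen genes, 1 regulator and 1 list of target genes are not reported here. The 10 nM dose and the methylation arrays that the labels mention were not analysed here. Promoter windows came from RefSeq (GRCh38.p14).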

Additional observations from a re-analysis of the deposited data

How the results depend on the processing

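All 7 tested members kept their direction and stayed past the threshold under all 13 alternatives. CDKN1A ranged from 2.64 to 2.91 on the log2 scale, CDKN2D from 1.14 to 1.39, CCND3 from 1.09 to 1.39, CDKN1C from 0.54 to 0.79, CDKN2C from 0.35 to 0.62, CCND1 from 0.15 to 0.38 and CDKN1B from -0.67 to -0.39. The number of members called higher was 6 throughout except 7 when genes with low counts were kept, where CCND2 was added. Over all genes, 4318 were lower on log2(TPM + 1) and 6677 in the reported fit, on a scale where the median of all genes was shifted by 0.17. Leaving out 1 library gave 6400 to 6698 genes higher and 6319 to 6645 lower. The replicate numbers are no evidence of pairing (correlations of same-numbered libraries 0.0805, -0.0277 and 0.0431), and with a replicate block 6837 genes were higher and 6749 lower, with the same 6 and 1 members. Family shares moved most when counts per annotated length replaced TPM: CDKN1A was then 31.9% of the CIP/KIP sum with NTX301 and 5.01% with DMSO, CDKN1B 52.8% and 84.5%, CDKN1C 15.3% and 10.46%, and CCND3 8.79% and 4.57% of the cyclin sum. Few counts limit the precision for CCND2, and for CDKN2A and CDKN2B only an upper limit can be given.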

Other observations

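The remaining cyclins and kinases, of which 4 cyclins and 5 kinases also belong to the G1 list, were described as well. Of 23 tested cyclins outside the D type, 12 were higher, 5 lower and 6 not called, with a median log2 fold change of 0.27. CCNO was higher by 1.78 ± 0.20, at 2.87 CPM with NTX301 and 0.831 CPM with DMSO, and CCNA2, which drives S phase with CDK2, by 1.43 ± 0.07. Of 20 tested kinases, 11 were higher, 7 lower and 2 not called, with a median of 0.17. Beside the counts of cyclins and of kinases, 35.4% of all tested genes were higher and 35.1% lower. CDK1, the mitotic kinase, was higher by 1.88 ± 0.08, at 133 CPM with NTX301 and 36.2 CPM with DMSO. CDK10 had a log2 fold change of -1.34 ± 0.06, at 24.4 CPM with NTX301 and 61.6 CPM with DMSO.

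Genes next to CCND1 differed in both directions: FGF19, 43758 bases away, was lower at 1.43 ± 0.598 CPM with NTX301 against 4.0 ± 0.151 CPM with DMSO (log2 fold change -1.48 ± 0.23), and the noncoding LINC01488 was higher by 2.31 ± 0.37. SRSF3, next to CDKN1A, had a log2 fold change of -0.53 ± 0.06 and CPNE5, on its other side, of 1.22 ± 0.17. TIGAR, 2413 bases from CCND2 and a regulator of glycolysis, was higher by 0.66 ± 0.07, and PARP11 had a log2 fold change of -0.58 ± 0.09. RNF11, next to CDKN2C, had a log2 fold change of -0.44 ± 0.04. Beside CDKN2A, the pseudogene KHSRPP1 was not called, at 0.26 ± 0.30 (edgeR adjusted p = 0.47).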
